A study of Mus musculus with 36 samples.

Results

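The comparison was that of PERK -/- mouse embryonic fibroblasts given halofuginone together with thapsigargin (3 libraries) against PERK -/- fibroblasts given thapsigargin alone (3 libraries). Its libraries were taken by genotype and treatment from the labels, without any measured value, and they are 6 of the 36 bulk RNA-seq libraries of the series. The series crosses 2 genotypes (WT and PERK -/-) with 6 treatments (DMSO, Thapsigargin, BtdCPU, Halofuginone, and each of the latter pair with thapsigargin), 3 libraries to a group. Both compared groups are labelled PERK -/- and received thapsigargin, so the presence of halofuginone is their labelled difference. Groups used for reference were PERK -/- cells with DMSO, with Halofuginone alone or with BtdCPU and Thapsigargin, and WT cells with DMSO, with Thapsigargin or with Halofuginone and Thapsigargin. The labels name 1 cell line entry, MEF, and give no clone, dose, treatment time or batch. Nothing in them says that replicates were separate cultures, so p-values measure only the spread between these libraries, which may be technical.

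PERK is a kinase of the endoplasmic reticulum (ER) membrane that phosphorylates the translation factor eIF2 alpha when unfolded proteins build up in the ER. Phosphorylated eIF2 alpha slows most protein synthesis and favours translation of the transcription factor ATF4, and the program that follows is called the integrated stress response (ISR). Thapsigargin causes ER stress by blocking the pump that fills the ER with calcium, a stress that also starts the IRE1 and ATF6 branches, which do not need PERK. Halofuginone inhibits the prolyl part of the glutamyl-prolyl-tRNA synthetase, and the uncharged tRNA activates GCN2, another eIF2 alpha kinase. BtdCPU is a compound reported to act through a further eIF2 alpha kinase, HRI.

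Of 16065 genes tested, 8462 (52.7%) changed when halofuginone was added to thapsigargin in PERK -/- cells, at an adjusted p under 0.05 in edgeR's quasi-likelihood test with Benjamini-Hochberg adjustment, which is what "adjusted p" means throughout. A rise was called for 4047 genes (25.2%) and a fall for 4415 (27.5%), and the median log2 change of all tested genes was -0.014. These shares of all genes are the background for the list counts below. The rises included 21 of 24 ISR factors, 18 of 20 cytosolic aminoacyl-tRNA synthetases, 24 of 28 immediate early and ERK feedback genes and 22 of 28 ribosome biogenesis genes. The falls included 29 of 32 genes of sterol and fatty acid synthesis, 26 of 30 mitotic genes, 16 of 20 collagen processing genes and 16 of 20 genes of NRF2, its regulator and its targets. With a log2 change of at least 1, 1589 genes (9.89%) were higher and 1717 (10.7%) lower. Levels are CPM, counts per 1000000 on TMM-scaled library sizes, and the CPM of the 2 groups did not overlap for 10150 genes (63.2%).

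The libraries held 35253915 to 36310952 counts. In a principal component analysis of the 6 libraries, component 1 (73.3% of the variance) separated the groups, and on component 2 (8.40%) the libraries of replicate 3 lay apart from the others in both groups. Without these 2 libraries, an analysis chosen after the data were seen, 6661 genes were called. Mitochondrial mRNA made up 2.99% to 3.51% of counts with both compounds and 3.38% to 4.40% with thapsigargin alone. Of 10 fibroblast markers 1 was higher and 7 were lower, and their summed level was 10886 to 11381 CPM with both compounds against 17681 to 21537 CPM with thapsigargin alone. For summed markers, here and below, CPM are on library totals without TMM scaling. In bulk RNA, fewer cells of a type and less RNA per cell cannot be told apart. Neural markers summed to 151 to 168 CPM against 222 to 245 CPM: of 5, Nes (log2 change -0.82) and Tubb3 (-0.60) fell, Map2 (-0.069) did not pass, and Sox2 and Rbfox3 stood at 3 counts or fewer in each of the 6 libraries. Epithelial markers summed to 1.86 to 2.65 CPM against 1.45 to 2.01 CPM, with 1 of 7 higher (Krt18, log2 change 1.24), and Epcam and Krt5 at 3 counts or fewer in each library. Endothelial, muscle and pluripotent markers summed to at most 1.33 CPM in any library. The part of these markers in the results was not tested. Some named genes overlap another tested gene in the GRCm38 annotation, and use of strand in the counting is not given, so their counts can hold reads of the partner. This touches Ddit3, Hspa5, Gadd45a, Dusp6, Wdr43, Wars, Rars2, Kif20a, Ccnd2, Cryab, G6pdx, Pfkm, Slc16a3, Txnip, Plk3, Inf2, Mest, Cebpd, Gm15441, Gm24576 and Lrrc17.

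Eif2ak3, the gene of PERK itself, stood at 32.7, 28.1 and 35.4 CPM with both compounds and at 26.0, 25.01 and 31.2 CPM with thapsigargin alone (log2 change 0.23 ± 0.18 SE, adjusted p = 0.298). The groups overlapped. Its mean was 9.95 ± 0.760 CPM (SD, n = 3) in PERK -/- DMSO libraries and 31.1 ± 1.10 CPM in WT DMSO libraries, and reads outside a deleted stretch would still be counted, so this value does not check the protein. Eif2ak4, which encodes GCN2, gave 71.9, 67.2 and 78.2 CPM against 69.9, 74.1 and 76.9 CPM (log2 change -0.024 ± 0.13 SE, adjusted p = 0.899), again with overlap. None of the 6 eIF2 alpha kinases and their regulators passed the edgeR test, and 0 did so at an unadjusted p under 0.05 or in DESeq2. Among 8 subunits of eIF2 and of its exchange factor eIF2B, 5 rose and 2 fell. The eIF2B subunit gene Eif2b3 rose most (123, 128 and 122 CPM against 46.2, 40.2 and 33.9 CPM, log2 change 1.63 ± 0.13 SE, adjusted p = 6.25e-12), followed by the eIF2 subunit genes Eif2s2 (1.23 ± 0.14) and Eif2s1 (1.20 ± 0.13, log2 change with SE). Another pair of eIF2B subunits, Eif2b2 (-0.60 ± 0.10) and Eif2b4 (-0.53 ± 0.093), fell.

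Many ATF4 targets carry a C/EBP-ATF response element near their start. Stretches around this element are shown for 6 genes of the ISR and amino acid results, chosen among genes with a match. They come from RefSeq promoters of build GRCm38.p6, read 5′ to 3′ on the strand of the gene and ending before its start, with the element (TGATGNAA, or its reverse complement) in capitals. The stretches lie at chr1:191183406-191183473 (- strand) for Atf3, chr2:119351019-119351086 (+ strand) for Chac1, chr7:45615592-45615659 (- strand) for Fgf21, chr6:7693210-7693262 (- strand) for Asns, chr19:43524670-43524737 (- strand) for Got1 and chr3:50443642-50443709 (- strand) for Slc7a11.
Atf3: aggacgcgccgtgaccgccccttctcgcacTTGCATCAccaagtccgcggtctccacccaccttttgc
Chac1: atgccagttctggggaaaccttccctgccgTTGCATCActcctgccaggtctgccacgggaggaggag
Fgf21: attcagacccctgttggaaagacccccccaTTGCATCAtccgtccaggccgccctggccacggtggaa
Asns: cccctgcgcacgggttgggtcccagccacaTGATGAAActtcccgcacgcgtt
Got1: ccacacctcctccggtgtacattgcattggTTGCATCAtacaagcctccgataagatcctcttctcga
Slc7a11: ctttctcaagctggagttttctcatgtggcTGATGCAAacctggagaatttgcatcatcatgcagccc
The match reads TGATGAAA in Asns, TGATGCAA in Slc7a11 and TTGCATCA, its reverse complement, in the other 4. Slc7a11 holds a further TTGCATCA downstream, left in lower case. A match in letters is a description of the sequence and not a measured binding site.

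Transcription factors and feedback genes of the ISR were mostly higher. Of 24 tested, 21 rose and 2 fell, with a median log2 change of 1.89 beside -0.014 for all genes. Among 10 activators 9 rose. Atf3, a stress-induced transcription factor, stood at 77.6, 88.3 and 92.1 CPM with both compounds and at 3.90, 4.96 and 4.57 CPM with thapsigargin alone (log2 change 4.26 ± 0.22 SE, adjusted p = 7.24e-16). Ddit3, which encodes the pro-death factor CHOP, stood at 195, 252 and 201 CPM with both compounds and at 47.4, 60.3 and 35.8 CPM with thapsigargin alone (log2 change 2.18 ± 0.21 SE, adjusted p = 3.61e-10). For both genes every library with halofuginone lay above every library without it. Atf4 itself gave 832, 893 and 768 CPM against 725, 781 and 656 CPM (log2 change 0.21 ± 0.11 SE, adjusted p = 0.107), and 1 library of each group lay inside the range of the other. It was the activator that did not pass, although it passed without replicate 3 of the combination (log2 change 0.29) and without replicate 2 of thapsigargin (0.30). ATF4 is controlled mainly through its translation, which these data do not measure.

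**Figure D1:**
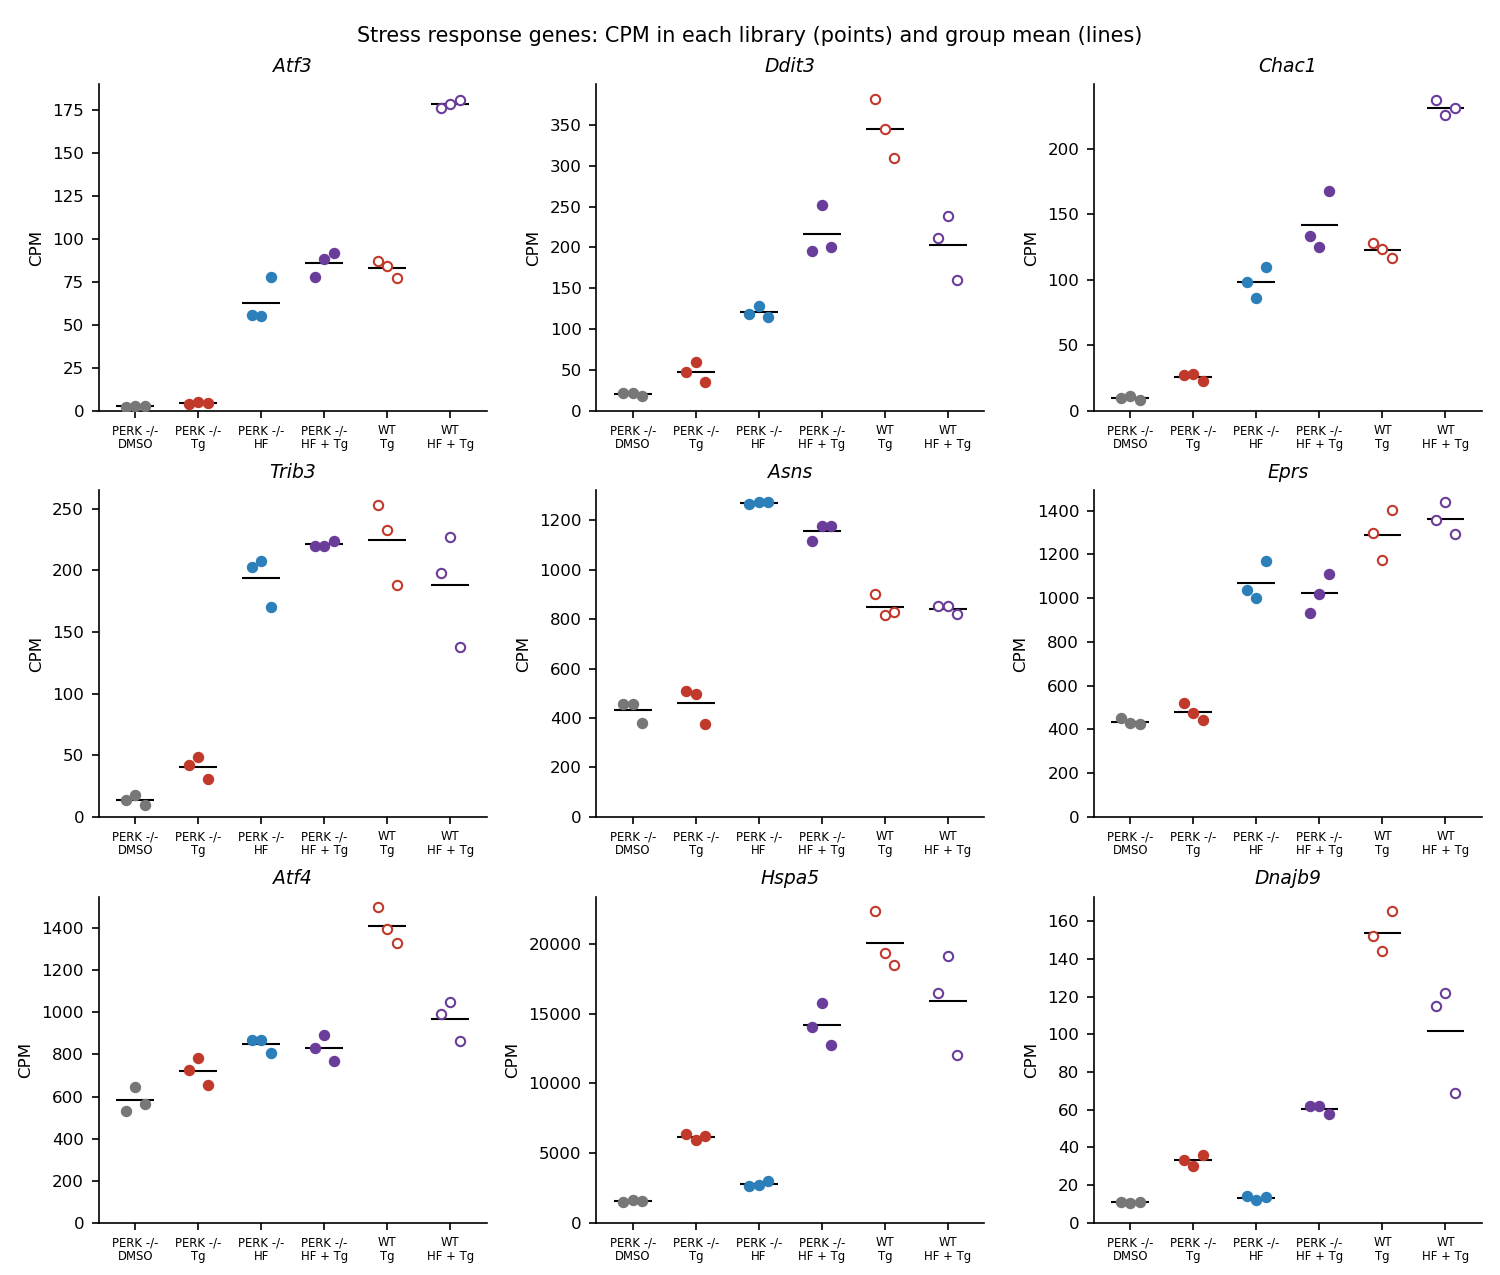
CPM of 9 stress response genes (y axes, linear and starting at 0) in each library of 6 groups; filled points are PERK -/- libraries, open points WT libraries, and lines are group means (Tg, thapsigargin; HF, halofuginone). In PERK -/- cells the 3 libraries with HF and Tg lie above the 3 with Tg for every gene shown except Atf4, as for Atf3 with 77.6, 88.3 and 92.1 CPM against 3.90, 4.96 and 4.57 CPM.

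Feedback genes and secreted factors followed. Chac1, which degrades glutathione, stood at 134, 125 and 167 CPM with both compounds and at 27.7, 28.2 and 22.5 CPM with thapsigargin alone (log2 change 2.44 ± 0.21 SE, adjusted p = 2.05e-11). Trib3, a pseudokinase that restrains ATF4 and CHOP, stood at 219, 219.8 and 224 CPM with both compounds and at 42.0, 48.5 and 30.4 CPM with thapsigargin alone (log2 change 2.45 ± 0.28 SE, adjusted p = 6.73e-09). Neither gene's groups overlapped, and 7 of 9 feedback genes and growth brakes rose. The 2 that fell were Trib2 (3.94, 3.22 and 2.81 CPM against 7.26, 7.28 and 9.82 CPM, log2 change -1.29 ± 0.27 SE, adjusted p = 1.69e-04) and Ddit4, which encodes the mTORC1 inhibitor REDD1 (25.5, 28.8 and 18.8 CPM against 44.2, 47.9 and 42.2 CPM, log2 change -0.88 ± 0.26 SE, adjusted p = 0.00591). The call for Ddit4 is lost without replicate 3 of the combination, where its log2 change was -0.69. All 5 secreted factors rose, with a median of 2.91. Fgf21, a metabolic hormone of stressed cells, reached 5.98, 7.23 and 7.29 CPM against 0.352, 0.491 and 0.561 CPM (log2 change 3.86 ± 0.50 SE, adjusted p = 8.89e-08). Gdf15, a stress cytokine, reached 2.12, 2.18 and 1.67 CPM against 0.0813, 0.164 and 0.107 CPM (log2 change 4.05 ± 0.53 SE, adjusted p = 1.30e-07). Both hormones were low without halofuginone and higher in each of the 3 libraries with it.

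Genes of amino acid supply rose in part. Of 26 amino acid synthesis genes 15 rose and 3 fell (median 0.49). Cth, which makes cysteine from cystathionine, stood at 167, 154 and 138 CPM with both compounds and at 31.98, 40.7 and 30.8 CPM with thapsigargin alone (log2 change 2.15 ± 0.23 SE, adjusted p = 3.77e-09). Asns, asparagine synthetase, gave 1115, 1176 and 1178 CPM against 509.8, 497 and 376 CPM (log2 change 1.33 ± 0.10 SE, adjusted p = 4.46e-12). The halofuginone libraries lay above the others for both, as they did for the transaminase genes Gpt2 (log2 change 2.03 ± 0.17 SE) and Got1 (1.72 ± 0.13 SE). Psat1, of serine synthesis, rose less (900.3, 989 and 861 CPM against 718, 741 and 616 CPM, log2 change 0.41 ± 0.11 SE, adjusted p = 0.00269), and 8 of 9 genes of serine and one-carbon metabolism rose. Among 6 genes of proline metabolism 2 rose and 1 fell, the last being Aldh4a1 of proline breakdown (6.80, 6.19 and 5.59 CPM against 14.2, 13.6 and 17.0 CPM, log2 change -1.27 ± 0.17 SE, adjusted p = 2.40e-07). Bcat2, of branched-chain amino acid breakdown, also fell (log2 change -1.09 ± 0.17 SE), and Cbs had 2, 3 and 0 counts with both compounds, so its level was at least 7.53-fold lower than with thapsigargin alone (against a floor of 3 counts per library).

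Eprs, which encodes the enzyme that halofuginone inhibits, stood at 934, 1018 and 1112 CPM with both compounds and at 522, 476 and 441 CPM with thapsigargin alone (log2 change 1.09 ± 0.10 SE, adjusted p = 1.53e-10). The groups were separate. Of 20 cytosolic aminoacyl-tRNA synthetases 18 rose and 1 fell (median 0.85). The synthetase genes that rose more than Eprs were 3: the threonyl Tars, at 1089.6, 1159 and 1116 CPM against 384, 392.4 and 323 CPM (log2 change 1.61 ± 0.097 SE, adjusted p = 1.52e-14), the tryptophanyl Wars (1.53 ± 0.15) and the glycyl Gars (1.11 ± 0.11). Qars, of the glutaminyl enzyme, was the member that fell (129, 131 and 117 CPM against 234, 231 and 246 CPM, log2 change -0.92 ± 0.082 SE, adjusted p = 7.00e-11). Of 17 mitochondrial synthetases 5 rose and 8 fell (median -0.26), and 5 fell without replicate 3 of both groups. The median was -0.14 without replicate 1 of the combination and -0.17 without replicate 3 of thapsigargin. Pars2, the mitochondrial prolyl enzyme gene, was among those that fell (4.71, 5.92 and 4.29 CPM against 8.83, 8.26 and 8.70 CPM, log2 change -0.79 ± 0.18 SE, adjusted p = 3.44e-04), while Nars2 (1.45 ± 0.11), Mars2 (1.31 ± 0.13) and Rars2 (1.16 ± 0.13) rose. Pars2 was lower in each library with halofuginone than in any without.

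Amino acid transporters split by member. Of 19, 9 rose and 7 fell. Slc7a11, the cystine importer, stood at 43.6, 45.7 and 49.6 CPM with both compounds and at 7.29, 7.72 and 4.51 CPM with thapsigargin alone (log2 change 2.83 ± 0.25 SE, adjusted p = 7.35e-11). Slc7a1, of cationic amino acids, rose by a log2 change of 2.07 ± 0.20 SE and Slc7a5, of large neutral amino acids, by 1.96 ± 0.15 SE. In the other direction, Slc38a4, a small neutral amino acid carrier, gave 60.9, 62.2 and 47.2 CPM against 163, 159.7 and 152 CPM (log2 change -1.48 ± 0.091 SE, adjusted p = 2.37e-14), and the lysosomal genes Slc38a9 (-1.42 ± 0.18) and Slc36a1 (-1.04 ± 0.14) fell as well. For each of these 6 genes the groups were separate.

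ER genes were divided. Among 24 ER chaperones and folding enzymes 8 rose, 4 fell and 12 did not pass, and the median was -0.023. Hspa5, the main ER chaperone BiP, stood at 14039, 15730 and 12760 CPM with both compounds and at 6364, 5909.8 and 6202 CPM with thapsigargin alone (log2 change 1.20 ± 0.14 SE, adjusted p = 1.88e-08). Dnajb9, a BiP cochaperone, gave 62.2, 62.0 and 57.7 CPM against 33.3, 30.3 and 35.8 CPM (log2 change 0.87 ± 0.15 SE, adjusted p = 1.27e-05). Both were higher in all 3 halofuginone libraries, as was Ero1l, an ER oxidase gene (log2 change 1.29 ± 0.19 SE). The disulfide isomerase gene P4hb (1318, 1385 and 1321 CPM against 2009.5, 1958 and 2193 CPM, log2 change -0.61 ± 0.086 SE, adjusted p = 3.72e-07), Erp29 (-0.60 ± 0.11) and Ppib (-0.46 ± 0.12) fell. Hspa5 holds an ER stress element (CCAAT, 9 further bases, CCACG) before its start, at chr2:34771995-34772073 (+ strand) in GRCm38.p6, shown because this element is known for ATF6 binding, with its full length in capitals:
Hspa5: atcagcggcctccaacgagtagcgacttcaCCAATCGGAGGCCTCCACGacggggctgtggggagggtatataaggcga
Of 18 ER chaperone genes with a RefSeq promoter 7 held the element, against 0.188% of 11158 tested genes.

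The ER sensors and the degradation machinery were mixed. Of 9 ER stress sensor genes 4 rose and 1 fell. Atf6, which encodes a sensor that is cut to a transcription factor, stood at 119.7, 134 and 130.1 CPM with both compounds and at 33.1, 32.1 and 34.0 CPM with thapsigargin alone (log2 change 1.95 ± 0.17 SE, adjusted p = 3.78e-11). Ern1, of the sensor IRE1, gave 19.8, 20.997 and 23.2 CPM against 9.05, 10.4 and 11.5 CPM (log2 change 1.05 ± 0.20 SE, adjusted p = 5.45e-05), and its target Xbp1 gave 243, 228 and 231 CPM against 145, 156 and 158 CPM (log2 change 0.61 ± 0.14 SE, adjusted p = 4.63e-04). Mbtps1, whose protease cuts ATF6, fell (175, 208 and 185 CPM against 368, 335 and 416 CPM, log2 change -0.98 ± 0.11 SE, adjusted p = 8.56e-09). Of 24 translocon and ER degradation genes 4 rose and 8 fell, beside 25.2% and 27.5% of all genes. Herpud1, a degradation adaptor, rose by a log2 change of 1.29 ± 0.15 SE and Os9, a lectin of the same route, fell by 0.92. Atp2a2, the widely expressed calcium pump that thapsigargin blocks, gave 921, 1024 and 1036 CPM against 728, 662 and 749 CPM (log2 change 0.48 ± 0.094 SE, adjusted p = 6.91e-05), and 2 of 13 ER calcium genes rose in all and 3 fell, with 4 risen when only the compared groups were fitted.

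Growth factor and stress genes stood among the largest rises. Of the 10 largest rises among genes with a mean log2 CPM of 2 or more, Gadd45a, a stress-induced growth arrest gene, stood at 381, 373 and 359 CPM with both compounds and at 14.5, 18.6 and 14.4 CPM with thapsigargin alone (log2 change 4.55 ± 0.24 SE, adjusted p = 1.46e-15). Hbegf, a ligand of the EGF receptor, gave 92.2, 82.2 and 96.9 CPM against 4.88, 4.15 and 2.94 CPM (log2 change 4.50 ± 0.22 SE, adjusted p = 3.18e-16). Ctgf, a matrix-associated factor, gave 178, 169 and 223 CPM against 11.4, 11.6 and 7.05 CPM (log2 change 4.24 ± 0.36 SE, adjusted p = 2.23e-11), and the cytokine gene Lif gave 31.3, 27.8 and 29.4 CPM against 1.98, 1.99 and 1.68 CPM (log2 change 3.97 ± 0.17 SE, adjusted p = 1.17e-17). Groups without overlap were a condition for this choice. The others of the 10 were Gm36182 (4.74), Atf3, Tnfsf11 (3.94), which encodes the cytokine RANKL, Vgf (3.91), Fgf21 and Car6 (3.85, log2 changes).

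Among 28 immediate early and ERK feedback genes 24 rose and 2 fell (median 1.21). Myc, a growth transcription factor, stood at 449.8, 424 and 447 CPM with both compounds and at 51.3, 52.4 and 49.6 CPM with thapsigargin alone (log2 change 3.11 ± 0.20 SE, adjusted p = 6.99e-14). Dusp6, a phosphatase of ERK, gave 19.4, 16.1 and 14.3 CPM against 2.22, 2.51 and 2.51 CPM (log2 change 2.78 ± 0.20 SE, adjusted p = 5.22e-13), and Egr1, an immediate early transcription factor, gave 18.5, 16.9 and 16.6 CPM against 2.87, 2.37 and 2.75 CPM (log2 change 2.70 ± 0.25 SE, adjusted p = 9.98e-11). In DMSO the same genes stood at 119, 120.0 and 134 CPM for Myc, at 40.1, 35.2 and 36.3 CPM for Dusp6 and at 37.97, 32.8 and 41.6 CPM for Egr1. With thapsigargin alone all 3 lay below their DMSO levels, and with halofuginone added Myc lay above and Dusp6 and Egr1 between. Against DMSO, 4487 genes changed with thapsigargin (27.9%) and 7252 with both compounds (45.1%), and these share libraries with the main comparison. Over the list, the per-library median relative to the DMSO mean was -2.01 to -1.73 (log2) with thapsigargin and -0.76 to -0.62 with both compounds. The 2 that fell, Dusp1 (-0.44 ± 0.18, adjusted p = 0.0423) and Spred1 (-0.31 ± 0.13, adjusted p = 0.0396), lost their calls when any 1 of the 6 libraries was left out and with RLE scaling, and that of Spred1 was also lost in DESeq2 and without a filter on low counts.

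The list median of ribosome biogenesis genes also lay below DMSO with thapsigargin alone, but near DMSO with both compounds. Of 28 nucleolar genes 22 rose and 1 fell (median 1.16). Wdr43, a factor of the small subunit processome, stood at 758, 784 and 808 CPM with both compounds and at 187, 191 and 154 CPM with thapsigargin alone (log2 change 2.14 ± 0.13 SE, adjusted p = 2.36e-14). Nop58, of box C/D snoRNPs, gave 774, 794 and 765 CPM against 211, 242 and 156 CPM (log2 change 1.94 ± 0.15 SE, adjusted p = 3.10e-12), and Ddx21, a nucleolar helicase gene, rose by a log2 change of 1.68 ± 0.15 SE. The list's median level relative to DMSO was -1.07 to -0.77 (log2) with thapsigargin and -0.035 to 0.19 with both compounds. Nop10 was the member that fell (-0.69), and its call is lost without replicate 3 of the combination or replicate 2 of thapsigargin. Of 77 ribosomal protein genes 4 rose and 22 fell (median -0.21). The fallen numbered 8 without replicate 3 of the combination, 11 without replicate 2 of thapsigargin and 9 without replicate 3 of both groups, and the risen 2 without replicate 1 or replicate 3 of thapsigargin. Their median was -0.076 without replicate 3 of the combination and -0.081 without replicate 2 of thapsigargin. The share that fell was near the 27.5% of all genes. Rps15 fell from 671, 739 and 622 to 362, 398 and 265 CPM and Rpl10a rose from 66.5, 73.7 and 60.9 to 127, 116 and 114 CPM, both without overlap.

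**Figure D2:**
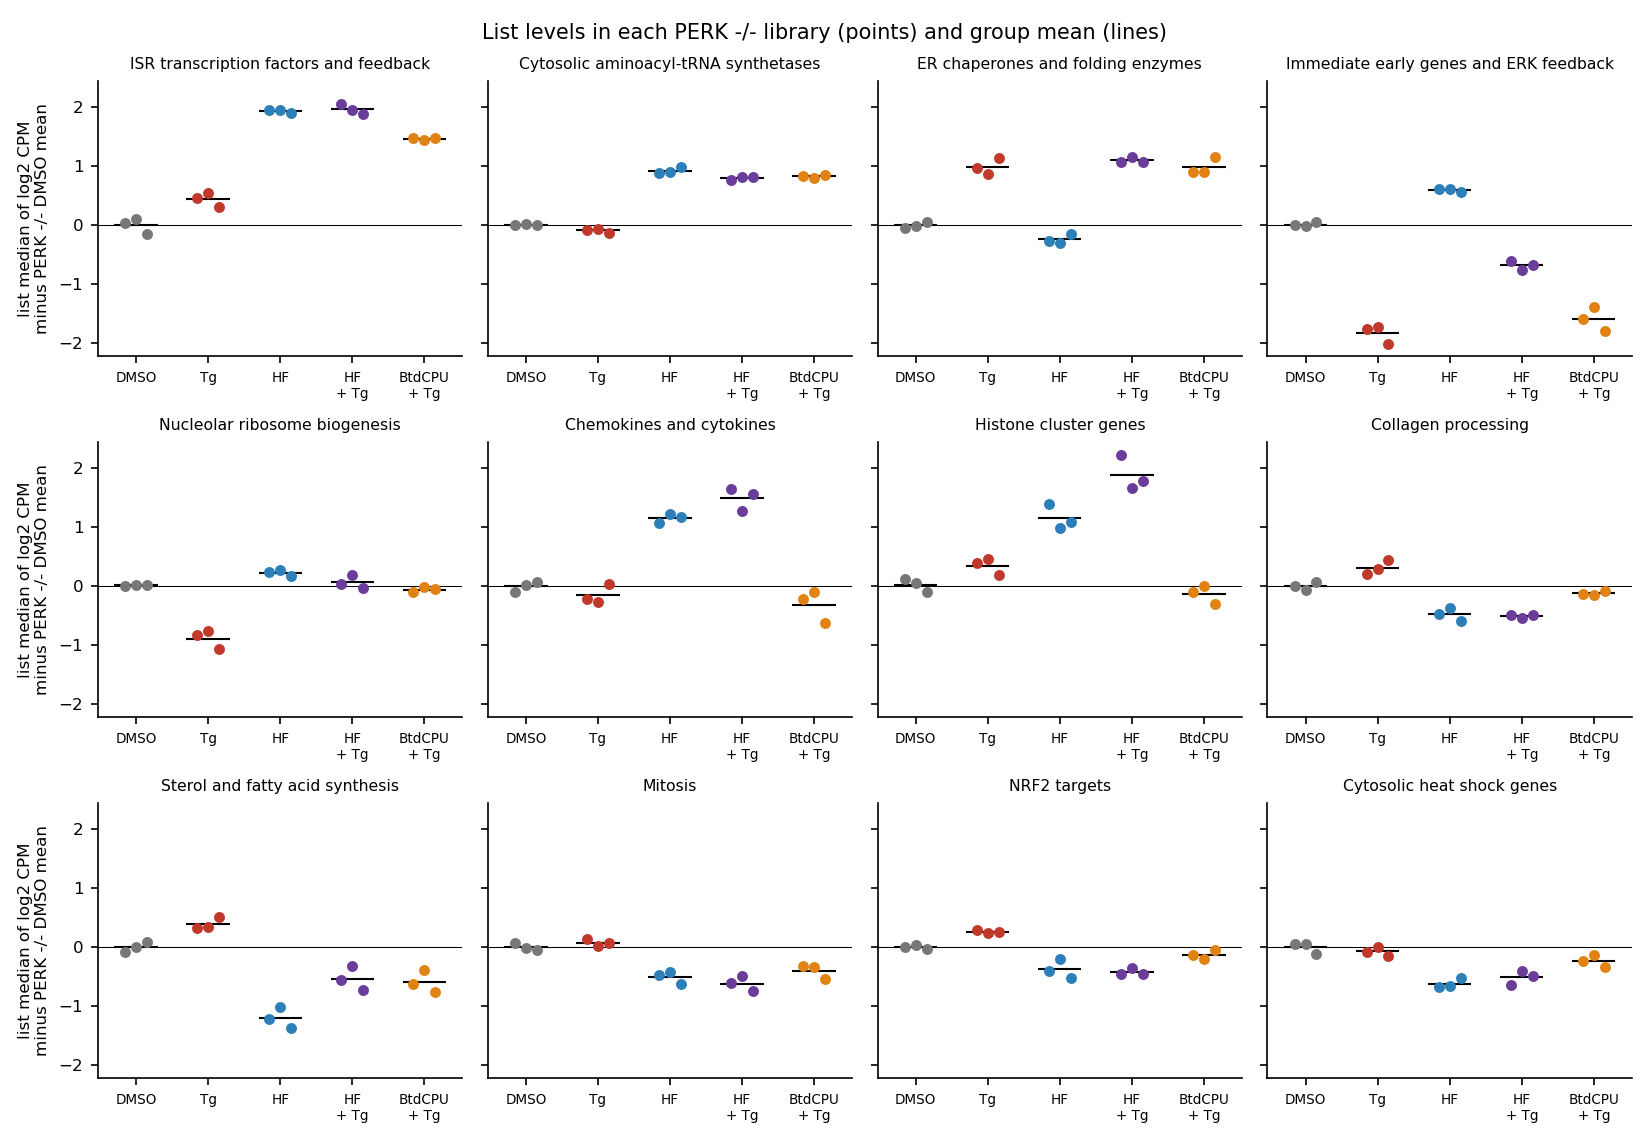
Median over the members of 12 gene lists of log2 CPM minus the PERK -/- DMSO mean (y axis, shared), in each library of 5 PERK -/- groups (points) with group means (lines; Tg, thapsigargin; HF, halofuginone). Immediate early and ERK feedback genes lie at -2.01 to -1.73 with Tg and -0.76 to -0.62 with HF and Tg. Sterol and fatty acid synthesis genes lie at 0.32 to 0.51 with Tg and -0.72 to -0.33 with HF and Tg.

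Of 19 chemokines, cytokines and their regulators 14 rose and 1 fell (median 1.69). Il6, an inflammatory cytokine, gave 6.80, 6.14 and 3.15 CPM against 0, 0.109 and 0.160 CPM (log2 change 5.84 ± 0.73 SE, adjusted p = 4.72e-08). Csf2 had 3, 1 and 0 counts with thapsigargin alone and was at least 5.17-fold higher with both compounds (against a floor of 3 counts per library). Cxcl12, a chemokine of stromal cells, fell (71.3, 61.5 and 76.1 CPM against 94.3, 133 and 109 CPM, log2 change -0.69 ± 0.18 SE, adjusted p = 0.00161). Leukocyte markers, which could also carry such genes, summed to 18.4 to 21.1 CPM with both compounds and 31.3 to 33.4 CPM without halofuginone, and Emr1 stood at 3 counts or fewer in all 6 libraries; their part was not tested. Of 23 interferon-stimulated genes 6 rose, a share near the 25.2% of all genes, and 2 fell. The rises numbered 3 without replicate 3 of the combination or replicate 2 of thapsigargin and 16 when only the compared groups were fitted, and 1 fall was called without replicate 1 or 3 of the combination or replicate 2 or 3 of thapsigargin. The largest rise was that of Usp18, which encodes a brake on interferon signalling (8.81, 7.61 and 8.61 CPM against 0.569, 0.846 and 0.400 CPM, log2 change 3.78 ± 0.93 SE, adjusted p = 0.00102).

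Histone genes were higher. Of 66 tested histone cluster genes 50 rose and none fell (0 at an unadjusted p under 0.05 and 0 in DESeq2), with a median of 1.67 (1.66 with the 2 members at the counting floor set to their bound). Hist1h2bn reached 4.76, 2.75 and 3.58 CPM against 0.596, 0.518 and 0.427 CPM (log2 change 2.84 ± 0.54 SE, adjusted p = 4.63e-05), and Hist1h1b, of a linker histone, reached 3.15, 1.83 and 3.92 CPM against 0.488, 0.573 and 0.267 CPM (log2 change 2.74 ± 0.49 SE, adjusted p = 2.08e-05). These genes are near-identical copies whose reads can be split by the counting, and their mRNAs mostly lack poly(A) tails, so single members are uncertain. Mitotic genes were lower. Of 30 mitotic genes none rose (0 at an unadjusted p under 0.05 and in DESeq2) and 26 fell (median -0.70). Of 43 replication genes 8 rose and 13 fell, with 5 higher without replicate 3 of both groups. Of all genes 25.2% rose and 27.5% fell. Kif20a, a kinesin of cytokinesis, stood at 152, 189.9 and 138 CPM with both compounds and at 508, 466 and 511 CPM with thapsigargin alone (log2 change -1.63 ± 0.14 SE, adjusted p = 3.84e-11). Bub1b (-1.36 ± 0.13), of the spindle checkpoint, and Ccnb2 (-1.31 ± 0.12), a mitotic cyclin, fell as well. Dna2, a nuclease and helicase of replication, gave 9.45, 9.16 and 7.42 CPM against 26.99, 28.4 and 27.2 CPM (log2 change -1.67 ± 0.25 SE, adjusted p = 1.45e-06), while the cyclin gene Ccnd2 rose (99.2, 117 and 102 CPM against 65.7, 65.5 and 52.9 CPM, log2 change 0.79 ± 0.11 SE, adjusted p = 7.07e-07).

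**Figure D3:**
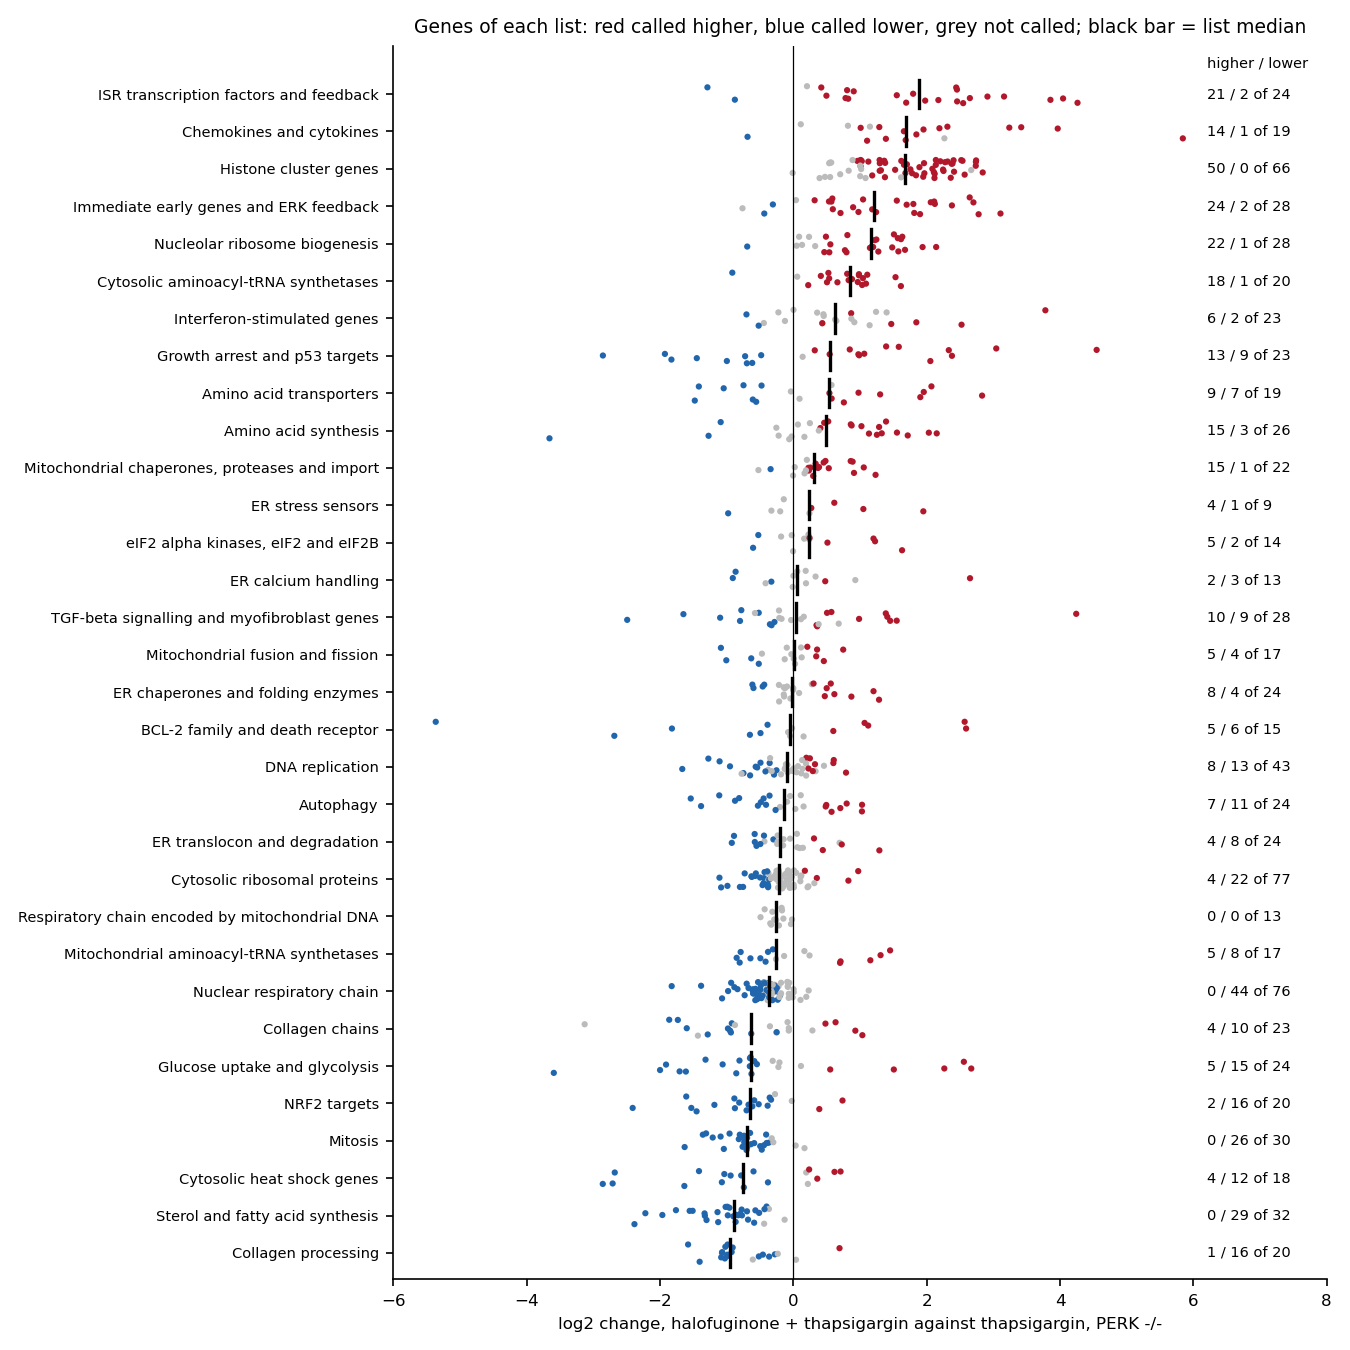
Log2 change with halofuginone added to thapsigargin in PERK -/- cells (x axis) for every tested gene of 32 lists (y axis, ordered by median); red points were called higher, blue lower, grey neither, black bars are medians and the numbers give members called higher and lower. ISR factors (21 of 24 higher) stand at the top and collagen processing (16 of 20 lower) at the bottom.

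Genes of collagen processing were mostly lower. Of 20 genes that modify, chaperone or crosslink collagen 16 fell and 1 rose (median -0.96). P4ha2, a subunit of collagen prolyl 4-hydroxylase, stood at 29.9, 36.6 and 28.8 CPM with both compounds and at 86.9, 93.2 and 104 CPM with thapsigargin alone (log2 change -1.58 ± 0.12 SE, adjusted p = 1.11e-12). P3h1, a prolyl 3-hydroxylase gene, gave 40.7, 47.5 and 41.9 CPM against 108, 111 and 126 CPM (log2 change -1.41 ± 0.13 SE, adjusted p = 9.09e-11), and Pcolce, which aids procollagen cleavage, gave 357, 360.0 and 381 CPM against 758, 748 and 818 CPM (log2 change -1.08 ± 0.073 SE, adjusted p = 1.84e-13). In each case the halofuginone libraries lay below the others. The member that rose, P3h2, has a call that is lost without replicate 3 of the combination or replicate 1 of thapsigargin (log2 change 0.69 ± 0.22 SE with all libraries). Of 23 collagen chains 4 rose and 10 fell, with a median of -0.63, or -0.35 with the 2 chains at the counting floor set to their bound. Without replicate 2 of the combination the fitted median was -0.30, and with only the compared groups fitted -0.26. Col11a1 fell from 149.7, 134 and 201 to 43.8, 43.7 and 58.3 CPM, and Col5a3 rose from 12.6, 11.2 and 11.7 to 23.7, 22.4 and 26.6 CPM. The fibroblast markers Pdgfra (-1.88), Pdgfrb (-2.01), S100a4 (-1.79) and Prrx1 (-0.71, log2 changes) fell beside them. The chains Col1a1, Col1a2 and Col3a1, which also serve as markers, fell as well. Twist1 rose (0.51), and Vim (0.039) and Thy1 (0.22, log2 changes) did not pass. The part of the fibroblast markers in this result was not tested.

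Genes of TGF-beta signalling and of the contractile fibroblast were split, with 10 of 28 higher and 9 lower (5 lower without replicate 3 of both groups). Of all genes 25.2% were higher and 27.5% lower. Besides Ctgf, the inhibitory Smad7 rose (17.6, 14.3 and 18.1 CPM against 5.50, 5.84 and 5.71 CPM, log2 change 1.55 ± 0.22 SE, adjusted p = 5.53e-07). The other inhibitory SMAD gene, Smad6, fell (3.07, 1.96 and 3.58 CPM against 13.9, 16.0 and 18.6 CPM, log2 change -2.49 ± 0.40 SE, adjusted p = 3.51e-06), as did the ligand gene Tgfb3 (-1.65 ± 0.19) and the myosin light chain gene Myl9 (-1.10 ± 0.20). The 2 inhibitory SMAD genes thus moved in opposite directions, each without overlap.

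Sterol and fatty acid synthesis genes were lower: of 32, 29 fell and none rose (0 at an unadjusted p under 0.05 and in DESeq2, median -0.88). Dhcr7, of the last step of cholesterol synthesis, stood at 9.19, 9.68 and 7.21 CPM with both compounds and at 43.2, 41.5 and 51.3 CPM with thapsigargin alone (log2 change -2.38 ± 0.22 SE, adjusted p = 8.61e-11). Nsdhl gave 23.4, 25.2 and 16.5 CPM against 95.8, 108 and 100.1 CPM (log2 change -2.22 ± 0.17 SE, adjusted p = 3.34e-12). Both enzymes act late in cholesterol synthesis, and their libraries with halofuginone lay below all libraries without it. In DMSO, Dhcr7 stood at 35.1, 31.1 and 40.8 CPM.

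Antioxidant and heat shock genes were mostly lower. Of 20 genes of the NRF2 target list, which also holds Nfe2l2 and the NRF2 regulator gene Keap1, 16 fell and 2 rose (median -0.64). Gstm1, a glutathione transferase, stood at 10.96, 13.6 and 10.8 CPM with both compounds and at 61.6, 58.0 and 68.3 CPM with thapsigargin alone (log2 change -2.41 ± 0.20 SE, adjusted p = 8.14e-12). Nqo1, a quinone reductase, gave 24.6, 28.7 and 21.1 CPM against 84.1, 66.5 and 76.1 CPM (log2 change -1.61 ± 0.13 SE, adjusted p = 1.21e-11), and G6pdx, of the pentose phosphate pathway, gave 53.9, 56.9 and 47.9 CPM against 149, 148 and 162 CPM (log2 change -1.53 ± 0.15 SE, adjusted p = 5.49e-10). Nfe2l2, which encodes NRF2 itself, rose (100.4, 109 and 113 CPM against 64.8, 61.9 and 66.6 CPM, log2 change 0.74 ± 0.089 SE, adjusted p = 2.53e-08). Among 18 cytosolic heat shock genes 12 fell and 4 rose (median -0.76), with 2 risen when replicate 1 of the combination or replicate 1 or 3 of thapsigargin was left out. Cryab, a small heat shock protein gene, fell from 35.4, 36.8 and 52.5 to 5.21, 6.71 and 7.13 CPM. Hspa1b (-2.86 ± 0.27) and Hspa1a (-2.68 ± 0.28), of inducible HSP70, fell alike, but they are near-identical copies and their counts are uncertain. Hspa4, an HSP70 cofactor gene, rose (0.71 ± 0.090).

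Glycolytic genes were mostly lower. Of 24, 15 fell and 5 rose (median -0.63). Pfkm, a phosphofructokinase gene, stood at 35.9, 36.9 and 31.5 CPM with both compounds and at 138, 129 and 149.5 CPM with thapsigargin alone (log2 change -1.999 ± 0.13 SE, adjusted p = 7.40e-14). Slc16a3, a lactate exporter gene, fell from 4.96, 6.03 and 4.97 to 0.371, 0.573 and 0.371 CPM. Those that rose included the arrestin genes Txnip (395, 315 and 468 CPM against 75.1, 53.1 and 71.8 CPM, log2 change 2.56 ± 0.33 SE, adjusted p = 1.14e-07) and Arrdc4 (9.93, 8.999 and 9.83 CPM against 1.57, 1.47 and 1.47 CPM, log2 change 2.67 ± 0.21 SE, adjusted p = 4.13e-12), which restrain glucose uptake, and the hexokinase gene Hk2 (2.26 ± 0.24). All 3 were higher in each library with halofuginone.

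Mitochondrial genes went different ways by function. Of 76 nuclear genes of the respiratory chain none rose (0 at an unadjusted p under 0.05 and in DESeq2) and 44 fell (median -0.36). The fallen numbered 28 without replicate 3 of the combination or replicate 2 of thapsigargin and 24 without replicate 3 of both groups. Uqcrh, of complex III, stood at 63.5, 55.0 and 40.0 CPM with both compounds and at 184, 211 and 167 CPM with thapsigargin alone (log2 change -1.82 ± 0.23 SE, adjusted p = 7.64e-08). None of the 13 chain genes in mitochondrial DNA passed in edgeR (median -0.26), with 1 lower at an unadjusted p under 0.05, 0 in DESeq2 and 5 lower when only the compared groups were fitted. The median was -0.17 without replicate 3 of the combination and -0.12 without replicate 2 of thapsigargin. Mitochondrial chaperones, proteases and import genes rose in 15 of 22 cases and fell in 1. Dnaja3, a mitochondrial cochaperone gene, gave 186, 199 and 189 CPM against 82.0, 80.6 and 81.1 CPM (log2 change 1.23 ± 0.12 SE, adjusted p = 1.61e-10), and the matrix protease gene Lonp1 gave 639, 661 and 647 CPM against 299.7, 317 and 319 CPM (log2 change 1.06 ± 0.12 SE, adjusted p = 4.37e-09). Of 17 fusion and fission genes 5 were higher and 4 lower, shares near those of all genes (25.2% and 27.5%), and 3 were higher without replicate 1 or 2 of thapsigargin. Mtfr1 (0.75 ± 0.088) and the fission GTPase gene Dnm1l (0.46 ± 0.10) rose, and Mtfr2 (-1.09 ± 0.21) and Inf2 (-1.01 ± 0.17) fell. The share of mitochondrial mRNA overlapped between the groups, as given above, and its part in them was not tested.

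Genes of growth arrest, cell death and autophagy were divided. Of 23 growth arrest and p53 target genes 13 rose and 9 fell: the stress kinase gene Plk3 rose (43.0, 44.6 and 49.8 CPM against 5.18, 5.86 and 5.61 CPM, log2 change 3.04 ± 0.20 SE, adjusted p = 1.15e-13) and Ccng2, an atypical cyclin gene, fell (9.40, 10.1 and 7.15 CPM against 61.1, 61.8 and 70.3 CPM, log2 change -2.86 ± 0.22 SE, adjusted p = 2.37e-12). In the BCL-2 family, 5 of 15 rose and 6 fell. Bmf, a pro-death member, had the largest fitted fall among them, to levels near the counting floor (0.0794, 0.273 and 0.185 CPM against 6.86, 6.76 and 8.86 CPM, log2 change -5.36 ± 0.61 SE, adjusted p = 8.78e-09), and Bcl2l11, which encodes the pro-death protein BIM, fell too (4.79, 3.49 and 3.31 CPM against 13.0, 11.7 and 16.3 CPM, log2 change -1.82 ± 0.20 SE, adjusted p = 2.62e-09). The pro-survival gene Mcl1 rose (162, 139 and 162 CPM against 66.6, 78.6 and 67.6 CPM, log2 change 1.12 ± 0.086 SE, adjusted p = 2.40e-12), and so did the pro-death gene Pmaip1 (2.57 ± 0.44). Of 24 autophagy genes 7 rose and 11 fell. Sqstm1, a cargo receptor gene, rose (1142, 1193 and 1255 CPM against 685, 715 and 663 CPM, log2 change 0.80 ± 0.13 SE, adjusted p = 6.30e-06), and the starting kinase genes Ulk1 (-1.54 ± 0.19) and Ulk2 (-1.11 ± 0.089) fell.

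The largest falls among genes with a mean log2 CPM of 2 or more were of varied function. 5430435G22Rik fell from 4.09, 3.68 and 4.35 to 0.371, 0.354 and 0.265 CPM. Dennd3, a Rab exchange factor gene, gave 3.04, 3.82 and 3.76 CPM against 38.6, 35.8 and 47.3 CPM (log2 change -3.52 ± 0.28 SE, adjusted p = 4.80e-12). Cacna1a, of a neuronal calcium channel, gave 3.07, 4.64 and 3.23 CPM against 30.1, 34.2 and 38.02 CPM (log2 change -3.23 ± 0.21 SE, adjusted p = 9.56e-14), and the imprinted gene Mest gave 5.61, 6.68 and 6.68 CPM against 57.6, 54.8 and 60.7 CPM (log2 change -3.19 ± 0.19 SE, adjusted p = 1.16e-14). Separate groups were a condition for this choice as well. The others were Efna4 (-3.12), an ephrin gene, Gm24576 (-3.07), Tmem119 (-3.02), Btd (-3.02), which encodes biotinidase, Asap3 (-3.00) and the transcription factor gene Nfatc4 (-2.91, log2 changes).

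**Figure D4:**
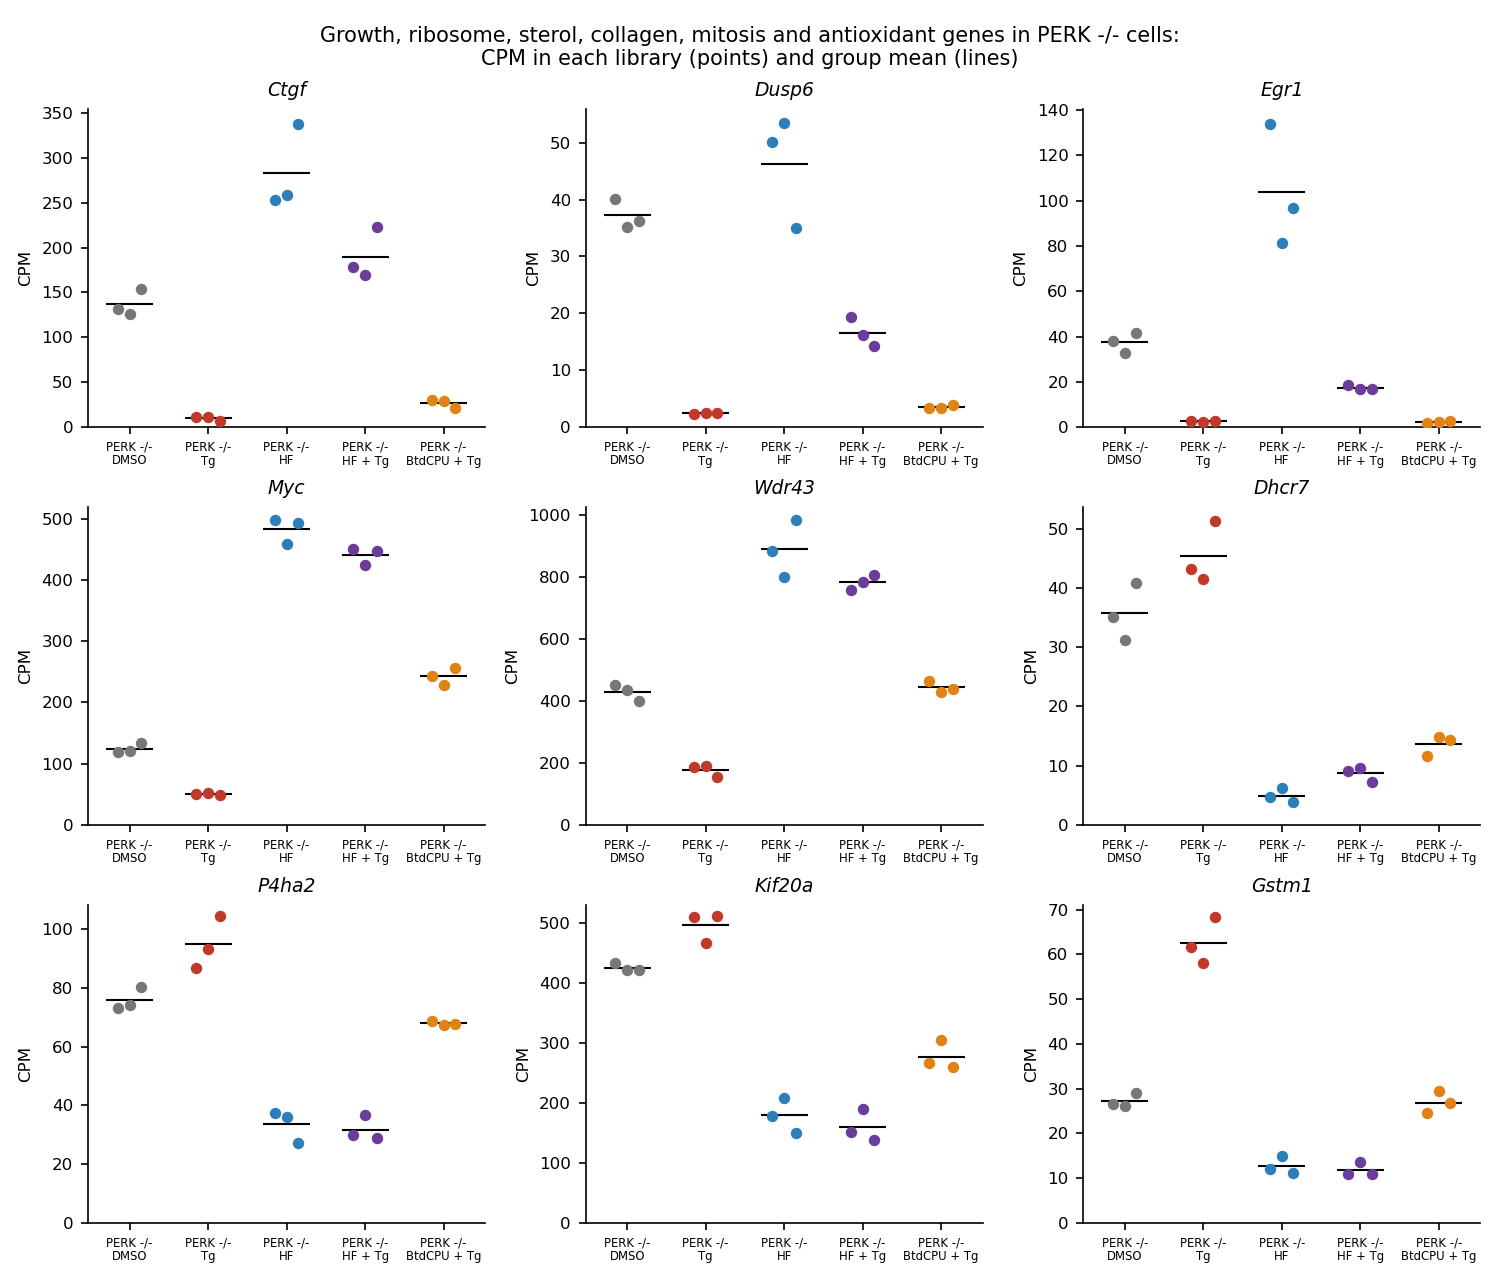
CPM of 9 genes (y axes, linear and starting at 0) in each library of 5 PERK -/- groups (points), with group means (lines; Tg, thapsigargin; HF, halofuginone). Ctgf, Dusp6, Egr1, Myc and Wdr43 are higher, and Dhcr7, P4ha2, Kif20a and Gstm1 lower, in all 3 libraries with HF and Tg than in the 3 with Tg, as for Myc with 449.8, 424 and 447 CPM against 51.3, 52.4 and 49.6 CPM.

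The same addition of halofuginone was then compared with WT cells. In WT cells 7276 genes changed (45.3%). The difference between the genotypes passed for 5259 genes (32.7%), with 2548 more positive (15.9%) and 2711 more negative (16.9%) in PERK -/- cells. Calls in the same direction in both genotypes numbered 3937, which is 46.5% of those in PERK -/- cells and 54.1% of those in WT cells, and 732 genes were called in opposite directions. Of 24 ISR factors 20 were more positive in PERK -/- cells and 1 more negative, and the list's median in WT cells was 0.13. Ddit3 fell in WT cells from 381, 344 and 309 CPM with thapsigargin to 212, 238 and 160.2 CPM with both compounds (log2 change -0.76 ± 0.20 SE, adjusted p = 0.00256), where it rose in PERK -/- cells, a difference of 2.94 ± 0.29 (adjusted p = 5.21e-09). With thapsigargin alone, the 3 WT libraries lay above the 3 PERK -/- libraries.

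Differences of the same sign held for Trib3 (2.71 ± 0.38), Chac1 (1.53 ± 0.28), Asns (1.34 ± 0.15), Eprs (1.01 ± 0.14), Atf4 (0.74 ± 0.15) and Psat1 (0.69 ± 0.16, differences of log2 change with SE). Chac1 rose in WT cells too, from 128, 123 and 117 to 237, 225 and 231 CPM. In WT cells Hspa5 changed by -0.34 ± 0.14 (log2, adjusted p = 0.0505) and Dnajb9 fell by 0.60 (adjusted p = 0.00146), and their differences between the genotypes were 1.54 ± 0.20 (adjusted p = 4.80e-07) and 1.47 ± 0.21 (adjusted p = 2.60e-06). Of 24 ER chaperone genes 14 had a more positive change in PERK -/- cells. For 20 of the 24 a fall was called in WT cells, where 22.5% of all genes fell. Eif2ak3 and Eif2ak4 gave differences of -0.0022 ± 0.25 and -0.017 ± 0.18, which did not pass.

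Nucleolar genes (24 of 28) and synthetases (17 of 20) were also more positive in PERK -/- cells. More negative there were 16 of 32 sterol and fatty acid synthesis genes, 11 of 18 cytosolic heat shock genes, 12 of 28 TGF-beta and contractile genes and 15 of 43 replication genes, beside 1, 1 and 2 more positive in the last 3 lists. Car6, a secreted carbonic anhydrase gene, had the largest positive difference (5.89 ± 0.65): it rose in PERK -/- cells and went from 14.9, 13.4 and 11.8 to 3.64, 5.06 and 1.02 CPM in WT cells. Cdsn (5.11 ± 0.46) and Avil (4.82 ± 0.48) came next. On the negative side stood Lhx8 (-5.32 ± 1.41) and Fndc3c1 (-4.50 ± 1.10), whose WT means with thapsigargin were 0 and 0.00900 CPM, so that their fitted differences depend on the prior count. Lhx8 stood at 0, 0.0825 and 0.0850 CPM with both compounds in WT cells and fell in PERK -/- cells from 119, 125 and 129.9 to 55.5, 53.6 and 51.7 CPM. Next came Mpp2 (-3.52 ± 0.42). Mpp2 fell in PERK -/- cells (7.31, 6.16 and 9.94 CPM against 22.9, 18.2 and 23.0 CPM, log2 change -1.45 ± 0.27 SE, adjusted p = 3.01e-05) and went from 1.02, 1.24 and 0.722 to 3.35, 4.13 and 5.10 CPM in WT cells. For some rises no difference was called: Lif changed by 3.86 ± 0.15 in WT cells, a difference of 0.11 ± 0.21 (adjusted p = 0.746), and Vgf by 3.14 ± 0.26, a difference of 0.77 ± 0.38 (adjusted p = 0.122). Genotype and cell line cannot be told apart, since the labels name no independent lines.

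**Figure D5:**
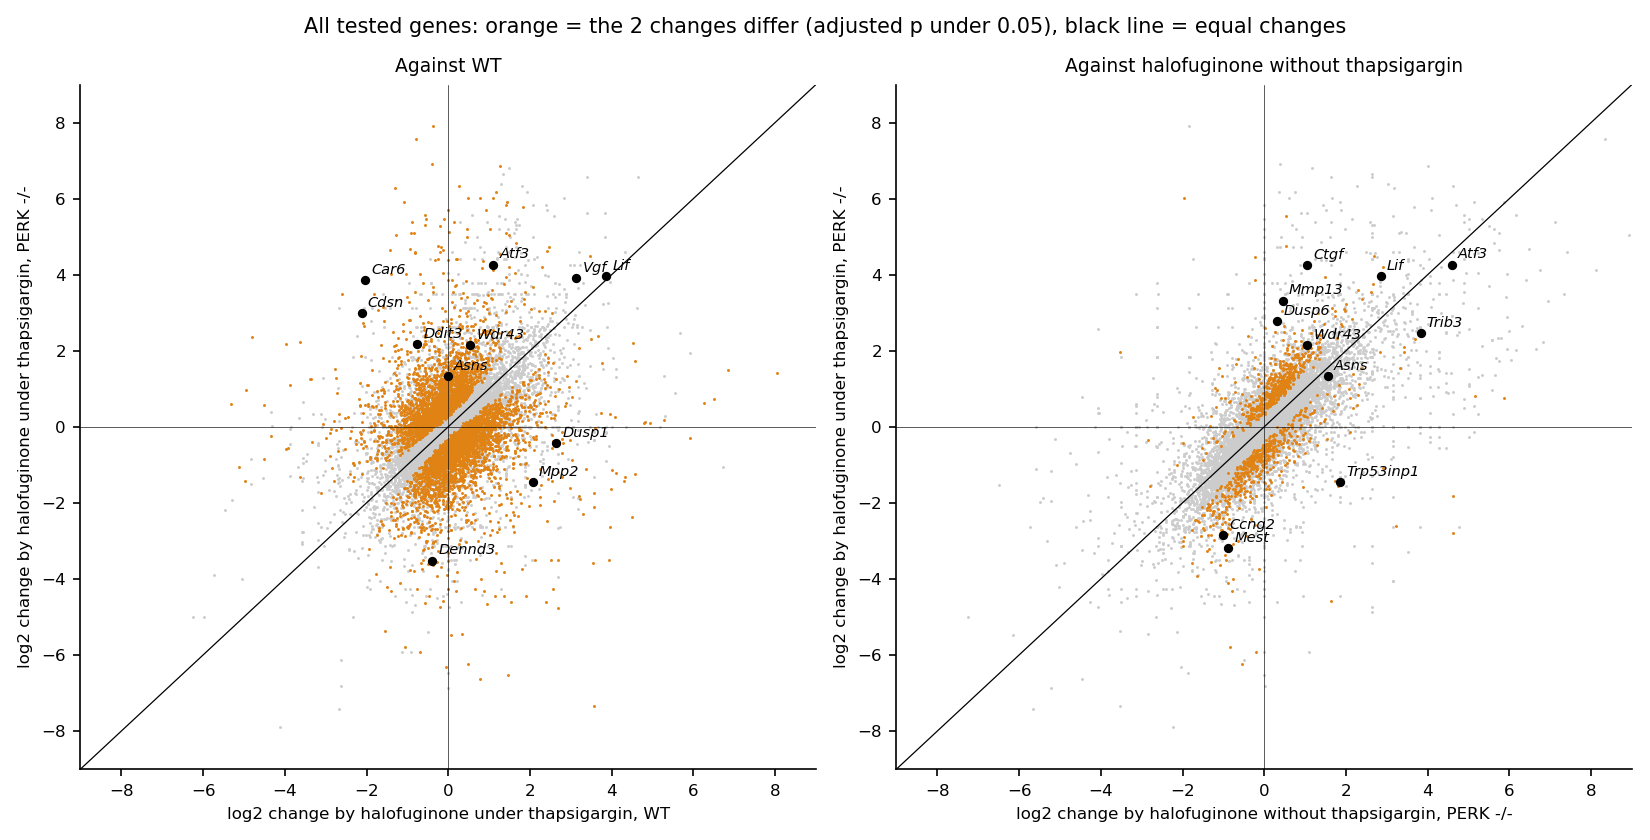
Log2 change with halofuginone under thapsigargin in PERK -/- cells (y axes) for all 16065 tested genes, against the change in WT cells (left) and against the change with halofuginone without thapsigargin in PERK -/- cells (right); orange points have changes that differ at an adjusted p under 0.05 and the line marks equal changes. Orange points number 5259 on the left and 1043 on the right.

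Halofuginone without thapsigargin changed 6785 genes against DMSO in PERK -/- cells (42.2%), and the response with thapsigargin differed from it for 1043 genes (6.49%; 531 or 3.31% more positive, 512 or 3.19% more negative). Calls in the same direction numbered 5556, or 65.7% of the calls with thapsigargin and 81.9% of those without, and 41 were opposite. The count of differing genes was 616 without replicate 3 of PERK -/- Thapsigargin and 467 without replicate 3 of both compared groups. Ctgf had the largest positive difference (3.19 ± 0.45): halofuginone alone took it from 131, 126 and 154 to 253, 259 and 338 CPM. Mmp13, a collagenase gene (2.87 ± 0.59), and Dusp6 (2.47 ± 0.26) followed, with 50.2, 53.4 and 35.0 CPM of Dusp6 in the halofuginone libraries. Dusp6 was thus high with DMSO and with halofuginone alone, lowest with thapsigargin and intermediate with both.

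Nucleolar genes (15 of 28) and immediate early or ERK feedback genes (14 of 28) were more positive under thapsigargin. So were 8 of 32 sterol and fatty acid synthesis genes, and in these lists 0, 2 and 1 were more negative. More negative were 8 of 20 collagen processing genes (1 more positive) and 4 of 23 collagen chains (0 more positive). The rise of Trib3 was smaller under thapsigargin (difference -1.37 ± 0.38, adjusted p = 0.0239), a call that is lost in 8 of the 12 fits that leave out 1 library. Trib3 stood at 203, 208 and 169.8 CPM with halofuginone alone and at 14.0, 17.4 and 9.52 CPM with DMSO. Its levels with halofuginone alone lay below those with both compounds, and its levels with thapsigargin above those with DMSO. The differences for Atf4 (-0.34 ± 0.15), Ddit3 (-0.36 ± 0.29), Asns (-0.23 ± 0.15), Chac1 (-0.84 ± 0.28), Psat1 (-0.31 ± 0.16), Eprs (-0.21 ± 0.14) and Hspa5 (0.37 ± 0.20) did not pass. At the negative end were Trp53inp1 (-3.31 ± 0.57), a p53-induced gene, Mest (-2.31 ± 0.25) and Lrrc17 (-1.96 ± 0.27). Mest stood at 11.3, 12.4 and 10.7 CPM with DMSO, at 57.6, 54.8 and 60.7 CPM with thapsigargin, and with halofuginone stood at 6.31, 6.13 and 6.34 CPM alone and 5.61, 6.68 and 6.68 CPM combined.

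Against BtdCPU, the other compound given with thapsigargin, 5874 genes differed in PERK -/- cells (36.6%), 2878 higher (17.9%) and 2996 lower (18.6%) with halofuginone. Doses and times are not in the labels, so the 2 compounds cannot be matched for strength, and the comparison shares its halofuginone libraries with the one above. Asns differed by 0.016 ± 0.10 (adjusted p = 0.934) and Chac1 by 0.13 ± 0.19 (adjusted p = 0.630), neither of which passed. Of 24 ISR factors 9 were higher and 3 lower with halofuginone. The higher members included Atf3 (0.75 ± 0.19, adjusted p = 0.00189), the C/EBP factor gene Cebpd (2.66) and the pseudokinase gene Trib1 (0.99, log2 differences). Atf4 (-0.72 ± 0.11), Ddit3 (-0.87 ± 0.20) and Trib3 (-0.69 ± 0.26) were the 3 lower with halofuginone. In the BtdCPU libraries Ddit3 stood at 374, 413 and 399.9 CPM. Eprs differed by 0.041 ± 0.10 (adjusted p = 0.796), with 961, 967 and 1049.8 CPM. Hspa5 (0.40 ± 0.14) and Dnajb9 (0.70 ± 0.15) were higher with halofuginone. The call for Trib3 is lost in each of the 6 fits that leave out 1 library, and that for Hspa5 in 4 of the 6.

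By list, 16 of 19 chemokines and cytokines, 58 of 66 histone genes and 21 of 28 immediate early or ERK feedback genes were higher with halofuginone. Lif stood at 1.90, 2.50 and 2.03 CPM with BtdCPU and thapsigargin, and Egr1 at 1.82, 2.40 and 2.81 CPM, each overlapping its levels with thapsigargin alone. The largest positive differences were Gm36182 (7.02 ± 0.80), Txnip (5.35 ± 0.38) and Gm15441 (5.30 ± 0.30), the last antisense to Txnip. Txnip stood at 9.53, 9.39 and 9.92 CPM with BtdCPU. At the other end Rnr1 (-3.66 ± 0.25) and Rnr2 (-3.62 ± 0.31), the ribosomal RNA genes of mitochondrial DNA, were lower with halofuginone, with 2650.3, 3178 and 2874 CPM of Rnr1 in the BtdCPU libraries against 213, 271 and 206 CPM. Ribosomal RNA was depleted in all libraries, per the labels' protocols, and the part of that step was not tested. Steap3, a metalloreductase gene (-2.85 ± 0.15), came next, and 14 of 20 collagen processing genes were lower with halofuginone than with BtdCPU.

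Promoter letters and codon content were described over all genes. The RefSeq promoter was 300 bases, with 250 before the gene start and 50 after it. The element TGATGNAA, on either strand, lay in the promoter of 3.07% of 11158 tested genes. It lay in that of 3.75% of genes that rose and of 2.27% of those that fell. For changes of at least 1 on the log2 scale, 63 of 1040 risen genes (6.06%) and 31 of 1202 fallen genes (2.58%) held it. By list, 6 of 20 ISR genes, 5 of 12 cytosolic synthetase genes and 3 of 21 amino acid synthesis genes held it. Proline codons were counted in the coding sequences of 12813 tested genes, since halofuginone limits prolyl-tRNA. In the 10% of genes with the lowest proline share (up to 3.18% of codons) the median log2 change was 0.038, with 30.8% called higher and 26.5% lower. In the 10% with the highest share (9.46% or more) it was -0.15, with 21.6% higher and 36.5% lower. Ranked by the number of proline codons instead, the lowest 10% had a median of -0.078 and the highest 10% one of -0.13. Proline codons begin with CC, so this share moves with base composition, whose part was not tested.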

How the data were processed

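RNA that was mRNA-selected and depleted of ribosomal RNA, from the cells of WT and PERK -/- fibroblasts, was sequenced as strand-specific DNBSEQ libraries, per the labels' protocols, and 36 libraries in 12 groups of 3 were used. The authors deposited 1 table of estimated counts (expected counts, not whole in part) per gene symbol, with no processing step in the file header, and the aligner, the annotation and use of strand are not given in the sources used here. The submitters' processing notes name GRCm39 and DESeq without a role. Values of 0.025, which made up 50.6% of the table, were read as 0, 2.69% of the others were not whole, and all values were then rounded. Entries with a number for a name, as spreadsheets write dates (27, holding 0.206% to 0.278% of counts) were left out of tests and library sizes, and symbols on several entries were summed.

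Genes passing filterByExpr (16065) were tested in edgeR 4.0.16 (R 4.3.3) with TMM scaling and the robust quasi-likelihood test over 12 group means, which share 1 estimate of the spread (24 residual degrees of freedom). Differences between responses were tested as interactions, and p-values were Benjamini-Hochberg adjusted over all tested genes with a threshold of 0.05. Alternatives were DESeq2 1.42.0, other scalings, no filter, fits of the compared groups alone, a replicate block and each library left out. On simulated counts for the main comparison (15063 genes, 200 changed), 98% of genes changed by a log2 of 1 and 49% of those changed by 0.585 were called, and 6 of 153 calls were of unchanged genes. The changed genes were drawn from well-counted genes, as many raised as lowered, and every gene had the same spread. Far fewer genes changed than were called in the data, so these rates hold for that setting only and not for genes with low counts.

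The comparison and the gene lists were chosen with earlier results of these data known, so lists are described by counts and medians with no test. Named genes were 11 readouts, the 10 largest rises and falls (mean log2 CPM of 2 or more, separate groups, and over 3 counts in each library of the group with lower levels), the 3 largest called rises and falls of each list, and the 3 largest differences in each direction of the other comparisons, though some of these are not reported here. Same-numbered libraries of both groups had deviations correlated at 0.030, 0.018 and 0.13, and differently numbered ones at -0.11 to 0.0835. The numbers were not taken to pair them, although replicate 3 of both groups lay apart in the principal component analysis. Libraries of a group differed by more than counting noise (chi-square per degree of freedom 9.70 to 35.7). Promoters came from RefSeq on GRCm38.p6 (807 of 885 named or listed genes matched) and proline codons from GENCODE M21 coding sequences on GRCm38, since protein sequences were not used here; coordinates are of that build and not of the counts' annotation.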

Additional observations from a re-analysis of the deposited data

Results flagged for a closer look

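The response to halofuginone under thapsigargin differed between PERK -/- and WT cells, by a test of the difference itself, for 5259 genes. Among the 11 readouts it was more positive in PERK -/- cells for Ddit3 (2.94), Trib3 (2.71), Hspa5 (1.54), Chac1 (1.53), Dnajb9 (1.47), Asns (1.34), Eprs (1.01), Atf4 (0.74) and Psat1 (0.69, differences of log2 change). Eif2ak3 and Eif2ak4 did not pass. Within PERK -/- cells, the response with thapsigargin differed from that without it for 1043 genes, and among the readouts for Trib3, whose change was smaller by a log2 difference of -1.37 and whose call is lost in 8 of the 12 fits that leave out 1 library.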

How the results depend on the processing

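The count of genes changed by halofuginone under thapsigargin was 8456 with RLE scaling, 8421 with library size scaling, 8190 without a filter, 8679 in DESeq2, 9071 with only the compared groups fitted and 7533 to 7816 with 1 library left out. The genotype difference held for 4431 to 5176 genes and the difference from BtdCPU for 4833 to 5263 with 1 library left out. The difference from the response without thapsigargin depended most on the setting: 1740 genes (931 more positive, 809 more negative) with only the compared groups, 467 (285 and 182) without replicate 3 of PERK -/- Halofuginone + Thapsigargin and Thapsigargin, a setting chosen after seeing the data, and 616 to 921 (376 to 542 and 240 to 404) with 1 library left out, lowest without PERK -/- Thapsigargin replicate 3; the cause was not tested. With the replicate block the 4 counts were 9646, 6859, 2317 (1077 and 1240) and 7493. Deviations of same-numbered libraries correlated at 0.030, 0.018 and 0.13, and those of differently numbered ones at -0.11 to 0.0835. Replicate 3 of both groups lay apart in the principal component analysis. Whether the numbers pair samples cannot be told from the labels or these values. Block fits also gave 34 fallen ribosomal protein genes and 4 risen ER calcium genes, a count also found with only the compared groups fitted.

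Of 2493 refits of single genes 66 lost and 5 gained a call. None changed direction where the gene was called in the main fit or in the refit. Changes of sign without a call in either were not counted. Atf4 gained a call with only the compared groups (0.24) and with the block (0.21). List medians near 0 changed sign. For ER chaperones the median was 0.011 without a filter, 0.015 with only the compared groups, 0.059 without replicate 3 of both groups and -0.046 to 0.070 with 1 library left out. With 1 library left out it ran -0.065 to 0.21 for TGF-beta genes, -0.099 to 0.024 for DNA replication (0.016 without replicate 3 of both groups) and -0.097 to 0.017 for the BCL-2 family (0.0044 with only the compared groups). Mitochondrial fusion and fission went to -0.018 without replicate 3 of both groups, and the 10% of genes lowest in proline to -0.078 by number of codons. Shares for TGATGCAA were 0.896% of all genes, 2.12% of those higher by at least 1 and 0.416% of those lower by at least 1. Low counts limit Il6, Gdf15, Fgf21, Bmf and the histone genes, and p-values cover the spread between 3 libraries a group only.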
